A study of Arabidopsis thaliana with 12 samples.

Results

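Autophagy is the route by which plant cells enclose part of their own cytoplasm in a double membrane and pass it to the vacuole for breakdown. ATG1 is the protein kinase that, with partner proteins, starts the process. ATG8 is a small ubiquitin-like protein that coats the growing membrane. The protease ATG4 trims the end of ATG8 and also frees it from the membrane, and ATG3 is the E2-type enzyme that passes trimmed ATG8 to a membrane lipid. In leaves this machinery is best known for recycling nutrients under starvation and during ageing, and sulfide is known to repress autophagy in Arabidopsis. Transcript levels, as measured here, are not a measure of autophagic activity.

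The genes described here are 3 ATG1 kinase genes, AT3G61960, AT3G53930 and AT2G37840, the gene ATG3 (AT5G61500) and the ATG4B protease gene AT3G59950. They are 5 of the 13286 genes with a probe set of their own in the deposited table, and all probe sets annotated to them were taken. A probe set is a group of short probes read together as 1 transcript. The rule found 6 probe sets among 22746 tested: AT2G37840 had 2, 266080_at and 266081_at, and each other gene had 1. Each was annotated to a single gene, and 0 probe sets of several genes listed any of the 5. Whether a probe set also reads a related kinase was not tested.

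Leaves of 30-day-old Arabidopsis thaliana plants in the Col-0 background were measured on 12 arrays, 3 in each of 4 groups: des1 given Na2S, des1 given water, wild type given Na2S and wild type given water. The des1-1 mutant is a single T-DNA insertion line in DES1, a cytosolic enzyme that degrades cysteine and releases sulfide. It comes without a second allele or a rescued line, so other changes carried by the line cannot be told apart from loss of DES1. Plants grew on soil for 20 days and were then watered for 10 days with plain water or with sodium sulfide (Na2S), labelled as 200 mM, a dose the arrays do not check, and no group received a sodium salt without sulfide. DES1 transcript itself was not analysed here, so the genotype labels were not checked against it.

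All values are log2 expression values, on which a difference of 1 is a doubling. Each comparison was tested with limma over all 22746 probe sets. A gene is said to have risen, fallen or passed where its Benjamini-Hochberg adjusted p lay under 0.05. Errors beside means are SD over 3 arrays and errors beside differences are limma standard errors (SE).

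The leaf identity of the samples was visible in 4 measured photosynthetic markers out of 9 listed, all at or above the 99.2 percentile of every array, and the only root marker measured, EXPA7, lay between percentiles 19.5 and 32.2. Array medians lay between 5.71 and 5.80. Arrays of 1 group correlated across probe sets at 0.9929 to 0.9975, against 0.9451 to 0.9482 between untreated des1 and untreated wild type. A ubiquitin control differed between its 3′ and 5′ ends by 1.19 to 1.40 in untreated des1, against 1.76 to 1.81 in untreated wild type. The treated groups lay between 1.35 and 1.61. A second pair of ubiquitin probe sets differed by 0.58 to 0.82 in untreated des1, against 0.84 to 1.27 in untreated wild type. The GAPDH and actin pairs compared in this way overlapped between the untreated genotypes. The 25S rRNA control read 10.93 to 11.97 in untreated des1, against 12.41 to 12.58 in untreated wild type. Its values in the treated groups were 11.95 to 12.55. The part of any of these controls in the comparisons was not tested. No harvest hour, array batch or scan date is given in the labels.

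Untreated des1 leaves had the highest mean of the 4 groups for 5 of the 6 probe sets. The same held for 30.3% of all probe sets tested. For 3 of the 6, those of AT3G61960, AT3G53930 and AT3G59950, every untreated des1 array lay above all 9 other arrays, as did 13.6% of all probe sets. The exception to the first pattern was the dim probe set 266081_at of AT2G37840.

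**Figure D1:**
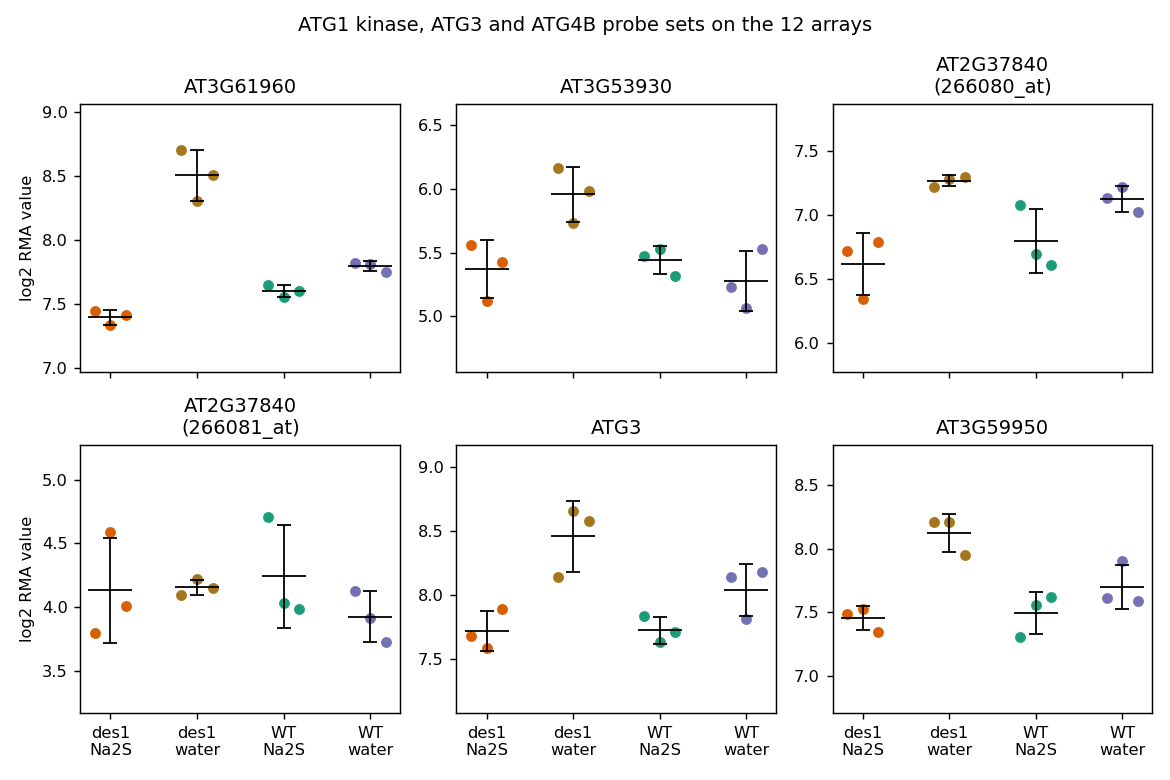
Log2 expression (vertical axes, each spanning the same number of log2 units) of the 6 probe sets in treated des1, untreated des1, treated wild type and untreated wild type. Coloured points are single arrays in replicate order, the long bar is the group mean and the error bar is ± 1 SD (n = 3). Untreated des1 stands apart from the other groups for AT3G61960, where its lowest array is at 8.30 and the highest of the others at 7.82, whereas the groups of probe set 266081_at overlap.

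The comparison of des1 with wild type under water asks how these transcripts differ in the des1-1 line when no sulfide is supplied. AT3G61960 and AT3G53930, a pair of the ATG1 kinase genes, rose in untreated des1, by 0.71 and 0.68 on the log2 scale, and AT3G59950 and ATG3 rose by 0.42 each. The third kinase gene, AT2G37840, did not pass on either probe set. In total 4 of 6 probe sets rose and 0 fell, and 2 of the 4 did so by at least 1.5-fold. Of all probe sets tested 22.0% rose, 22.6% fell and 44.7% passed in either direction, 26.6% with at least that size. The arrays of the genotypes did not overlap for 3 of the 6, as for 50.2% of all probe sets. The median difference over the 6 was 0.42, against 0.01 over all probe sets tested.

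The initiating kinase gene AT3G61960 had 8.70, 8.30 and 8.51 in untreated des1, against 7.82, 7.81 and 7.75 in untreated wild type. The groups did not overlap, and the mutant arrays were spread more widely (8.50 ± 0.20) than those of wild type (7.79 ± 0.04). The rise of 0.71 ± 0.11 is 1.64-fold (limma adjusted p = 1.79e-05). The kinase gene AT3G53930 had 6.16, 5.73 and 5.98 in untreated des1, against 5.23, 5.07 and 5.53 in untreated wild type. Again every mutant array was above every wild type array, although the lowest and the highest came within 0.2 of each other. The rise of 0.68 ± 0.14 is 1.60-fold (limma adjusted p = 0.000613).

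For AT2G37840 the brighter probe set 266080_at had 7.22, 7.28 and 7.30 in untreated des1, against 7.13, 7.22 and 7.02 in untreated wild type. The groups met at 7.22, and the difference of 0.14 ± 0.13 did not pass (limma adjusted p = 0.449, 95% interval -0.14 to 0.42). Its other probe set differed by 0.23 ± 0.19 (adjusted p = 0.385, 95% interval -0.17 to 0.63). These intervals include both no difference and a rise of the size called for ATG3. Whether these genes differ from each other in this response was not tested.

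The ATG8-lipid E2 gene ATG3 had 8.14, 8.66 and 8.58 in untreated des1, against 8.14, 7.81 and 8.18 in untreated wild type. The groups overlapped, since mutant replicate 1 lay no higher than wild type replicates 1 and 3. The rise of 0.42 ± 0.14 passed (1.33-fold, limma adjusted p = 0.0202) but depended on single arrays. The call was lost when untreated des1 replicate 2 was left out (adjusted p = 0.115), and likewise for untreated des1 replicate 3 (adjusted p = 0.0845) and untreated wild type replicate 2 (adjusted p = 0.116). The ATG4B protease gene AT3G59950 had 8.21, 8.21 and 7.95 in untreated des1, against 7.61, 7.90 and 7.59 in untreated wild type. The groups were separate, by 0.05 between the nearest arrays, and the rise of 0.42 ± 0.12 is 1.34-fold (limma adjusted p = 0.00693).

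On the same arrays, markers of other leaf states and cells moved too. Of 4 measured leaf senescence genes out of 9 listed, 3 rose in untreated des1 (SAG29, WRKY53 and WRKY6, by 5.93, 0.83 and 0.69 on the log2 scale), and SAG101 differed by 0.23 without passing. The summed linear level of the 4 was 1740 to 2540, against 98.8 to 110 in untreated wild type, and nearly all of that difference was SAG29: without it, a choice made after its values were seen, the sums were 107 to 120, against 66.5 to 75.7. Both measured dividing-cell genes out of 6 fell (sum 65.0 to 72.9, against 261 to 282), both measured guard cell lineage genes out of 4 fell (69.3 to 80.8, against 99.1 to 104), and of the 4 photosynthetic genes 3 fell and 1 rose. Their part in the rise of the autophagy genes was not tested. In whole leaves, a changed share of a cell type and a changed RNA level per cell cannot be told apart.

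The comparison of the genotypes under Na2S asks whether the difference remains when sulfide is supplied. None of the 6 probe sets passed limma there. An unadjusted limma p under 0.05 was reached by 0 of the 6, and by 2586 of the 22746 tested. After adjustment only 1.40% of all probe sets tested passed, which is 318 probe sets. That count fell to between 186 and 207 without any 1 of des1 Na2S replicates 1, 2 and 3 or wild type Na2S replicates 1 and 2, and no probe set of the 6 was called in any of these fits. All 6 differences were at or below 0, from -0.21 to -0.01, with a median of -0.09, against -0.01 over all probe sets.

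AT3G61960 had 7.44, 7.33 and 7.41 in treated des1, against 7.65, 7.55 and 7.60 in treated wild type. Here every mutant array lay below every wild type array, the opposite order to that under water, but the difference of -0.21 ± 0.11 did not pass (limma adjusted p = 0.48, 95% interval -0.43 to 0.02). Of all probe sets 16.9% had no overlap in this comparison. ATG3 had 7.68, 7.59 and 7.89 in treated des1, against 7.84, 7.63 and 7.71 in treated wild type. Those values were interleaved, and the difference was -0.01 ± 0.14 (95% interval -0.30 to 0.29).

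AT3G59950 had 7.49, 7.53 and 7.35 in treated des1, against 7.31, 7.56 and 7.62 in treated wild type, and the groups overlapped. Its difference was -0.04 ± 0.12 (95% interval -0.29 to 0.21), and the 95% interval of its rise under water was 0.17 to 0.68. AT3G53930 had 5.56, 5.12 and 5.43 in treated des1, against 5.47, 5.53 and 5.32 in treated wild type, also with overlap. Its difference was -0.07 ± 0.14 (95% interval -0.37 to 0.23). The probe sets 266080_at and 266081_at of AT2G37840 differed by -0.18 ± 0.13 and -0.11 ± 0.19, with overlapping groups.

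The effect of Na2S in des1 addresses the response of mutant leaves to the sulfide solution. It was the largest change of these genes in any of the 6 comparisons for AT3G61960, AT3G59950, ATG3 and probe set 266080_at of AT2G37840, and 5 of 6 probe sets fell while 0 rose. Of all probe sets tested 19.6% fell, 17.5% rose and 37.1% passed in either direction. All 5 fell by at least 1.5-fold, as 19.2% of all probe sets passed with at least that size in either direction. These 5 also had no overlap of arrays, as did 46.2% of all probe sets. The median over the 6 was -0.66, against 0.02 over all probe sets. The marker genes moved here as well: all 4 senescence genes fell (SAG29 by 4.72, the other 3 with differences of -0.67 to -0.57), both dividing-cell genes rose by 0.92 and 1.22, both guard cell lineage genes rose by 0.59 and 0.61, and 2 of the 4 photosynthetic genes rose. The summed level was 141 to 165 in treated des1, against 1740 to 2540 in untreated des1, for senescence (66.4 to 77.6, against 107 to 120, without SAG29). It was 133 to 157, against 65.0 to 72.9, for dividing cells and 114 to 118, against 69.3 to 80.8, for the guard cell lineage. Their part in the fall of the autophagy genes was not tested.

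AT3G61960 had 7.44, 7.33 and 7.41 in treated des1, against 8.70, 8.30 and 8.51 in untreated des1. The groups lay 0.86 apart at their nearest arrays, and the fall of 1.11 ± 0.11 makes it 2.16-fold lower (limma adjusted p = 1.46e-07). ATG3 had 7.68, 7.59 and 7.89 in treated des1, against 8.14, 8.66 and 8.58 in untreated des1. The groups did not overlap, and ATG3 was 1.67-fold lower (-0.74 ± 0.14, adjusted p = 0.000328), a call that held without each array in turn. AT3G59950 had 7.49, 7.53 and 7.35 in treated des1, against 8.21, 8.21 and 7.95 in untreated des1. It was 1.59-fold lower without overlap (-0.67 ± 0.12, adjusted p = 0.000206).

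AT2G37840 fell here, unlike the genotype difference under water, on probe set 266080_at. Its values were 6.72, 6.34 and 6.79 in treated des1, against 7.22, 7.28 and 7.30 in untreated des1. That is 1.57-fold lower (-0.65 ± 0.13, limma adjusted p = 0.000725), with the groups apart. AT3G53930 had 5.56, 5.12 and 5.43 in treated des1, against 6.16, 5.73 and 5.98 in untreated des1. The groups were separate and the gene was 1.5-fold lower (-0.59 ± 0.14, adjusted p = 0.00287).

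In wild type, Na2S was followed by no call among these genes. With limma 0 of 6 probe sets passed, where 30.4% of all probe sets tested passed. An unadjusted limma p under 0.05 was reached by 2 of the 6, and by 8799 of the 22746 tested. With array weights the number passing was 3 (AT3G61960, AT2G37840 on 266080_at and ATG3, all lower). Of all probe sets tested 30.4% passed without the weights, and the weighted fit called 9538 of the 22746. Without the weights 4 of the differences lay below 0 and 2 above it, with a median of -0.20, against 0.03 over all probe sets. Of the 4 senescence genes SAG29 rose by 1.30, WRKY53 fell (-0.38) and 2 did not pass. Of the dividing-cell genes PRL fell (-0.98) and AUR1 did not pass (-0.33). No guard cell lineage or photosynthetic gene passed. The part of these changes in the values of the autophagy genes was not tested.

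Among the ATG1, ATG3 and ATG4B probe sets the values nearest to a call were those of AT2G37840 on 266080_at. They were 7.08, 6.69 and 6.61 in treated wild type, against 7.13, 7.22 and 7.02 in untreated wild type. Treated replicate 1 lay inside the untreated range and the other two below it. The difference was -0.33 ± 0.13 (limma adjusted p = 0.0724), and it passed without wild type Na2S replicate 1 (adjusted p = 0.00927) or without dim probe sets (adjusted p = 0.0495). ATG3 had 7.84, 7.63 and 7.71 in treated wild type, against 8.14, 7.81 and 8.18 in untreated wild type. The groups overlapped through wild type water replicate 2. The difference was -0.32 ± 0.14 (adjusted p = 0.1), and it passed without that array (adjusted p = 0.0342).

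AT3G61960 had 7.65, 7.55 and 7.60 in treated wild type, against 7.82, 7.81 and 7.75 in untreated wild type. The treated arrays were all lower, as 40.9% of probe sets had no overlap in 1 direction or the other, and the difference was -0.19 ± 0.11 (adjusted p = 0.192). AT3G59950 differed by -0.20 ± 0.12 and AT3G53930 by 0.16 ± 0.14, with overlapping groups, and neither passed.

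The interaction asks directly whether the genotype difference under Na2S differs from that under water. It passed for 3 of 6 probe sets, all negative, where 19.1% of all probe sets tested passed with a negative sign and 37.7% with either. AT3G61960 had an interaction of -0.92 ± 0.15 (limma adjusted p = 7.17e-05) and AT3G53930 one of -0.75 ± 0.20 (adjusted p = 0.00597). Both calls held under each alternative run for the interaction, single arrays left out included, and the fit of compared arrays alone does not apply to it.

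The interaction of AT3G59950, -0.46 ± 0.17, passed narrowly (adjusted p = 0.0384). It was lost without des1 water replicates 1 or 2, des1 Na2S replicates 1 or 3, wild type water replicates 1 or 3, or wild type Na2S replicates 2 or 3, each left out singly (adjusted p between 0.0545 and 0.0985), and on renewed quantile normalization (adjusted p = 0.0857). ATG3 had -0.42 ± 0.20 and did not pass (adjusted p = 0.106), but passed without des1 water replicate 1 (adjusted p = 0.0147). AT2G37840 had -0.32 ± 0.19 on 266080_at and -0.34 ± 0.27 on 266081_at, and neither passed. A different effect of Na2S in the genotypes was therefore called for AT3G61960, AT3G53930 and AT3G59950, and for AT2G37840 and ATG3 it was not.

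**Figure D2:**
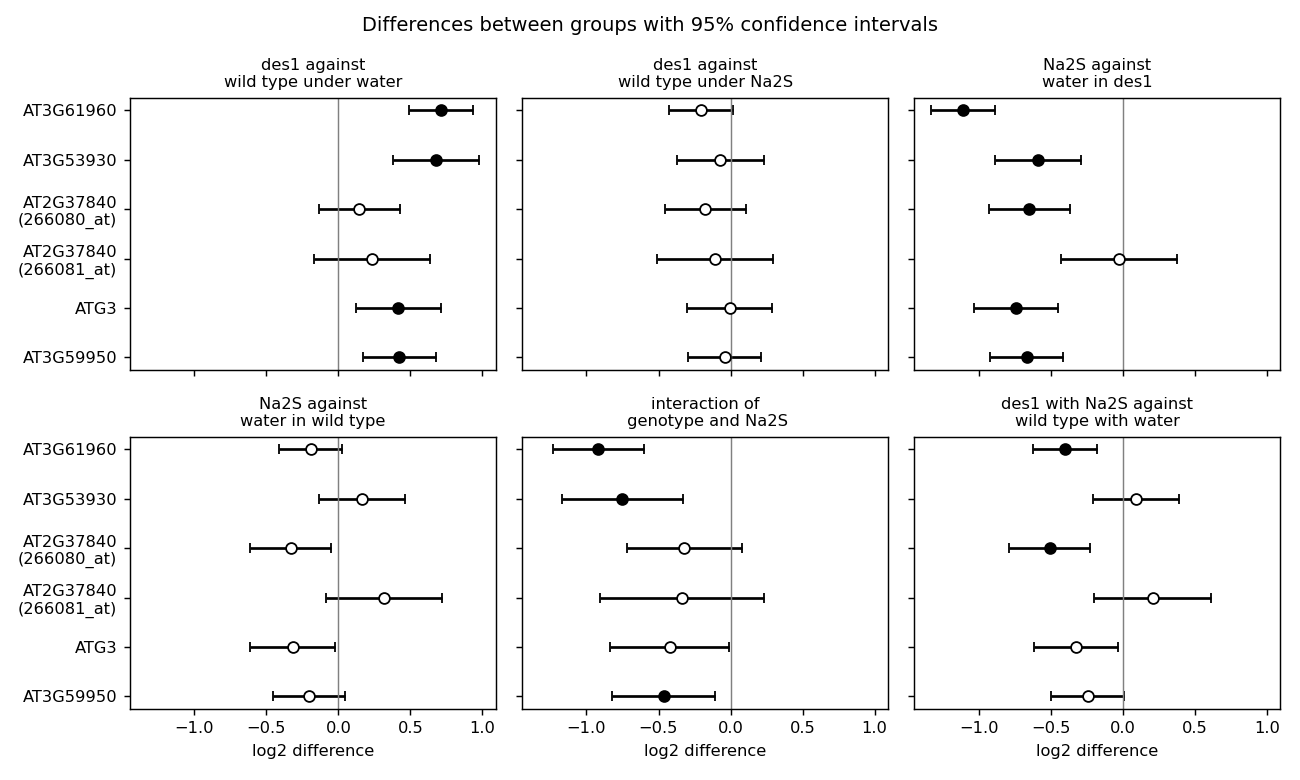
Log2 differences (horizontal axes) of the 6 probe sets in the 6 comparisons, with points for the estimate and bars for its 95% confidence interval (limma, 12 arrays). Filled points passed at an adjusted p under 0.05. Under water 4 points are filled and lie above 0, under Na2S 0 are filled, and in des1 given Na2S against des1 given water 5 are filled and lie below 0.

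Treated des1 leaves were also set against untreated wild type leaves, to place the treated mutant relative to the untreated control. The 2 kinase probe sets that passed were lower: AT3G61960 at -0.40 ± 0.11 (limma adjusted p = 0.00663) and AT2G37840 on 266080_at at -0.51 ± 0.13 (adjusted p = 0.00664). Of all probe sets tested 16.1% were lower and 30.3% passed in either direction. AT3G53930 differed by 0.09 ± 0.14 (95% interval -0.21 to 0.39). ATG3 differed by -0.32 ± 0.14 (limma adjusted p = 0.0939). It passed under 2 of 13 alternatives, 1 of them without wild type water replicate 2 (limma adjusted p = 0.0323). The lowest limma adjusted p of ATG3 under any alternative was 0.0119. AT3G59950 differed by -0.24 ± 0.12 (limma adjusted p = 0.146). Of the 4 senescence genes SAG29 was higher (1.21), SAG101 was lower (-0.40) and 2 did not pass. Both dividing-cell genes were lower (-1.18 and -0.61), and no guard cell lineage or photosynthetic gene passed. The part of these markers in the differences of the autophagy genes was not tested. This comparison shares its arrays with those above.

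The order of the 4 group means was the same for AT3G61960, ATG3, AT3G59950 and probe set 266080_at of AT2G37840. Untreated des1 was highest, then untreated wild type, then treated wild type, then treated des1. Only the step between the untreated groups passed, for AT3G61960, ATG3 and AT3G59950 and not for 266080_at, and the other neighbours in that order did not differ past the threshold. For AT3G53930 untreated des1 came first, 0.52 above treated wild type (adjusted p = 0.0081), and treated wild type, treated des1 and untreated wild type followed within 0.16 of each other with no step past the threshold. Untreated des1 was above treated wild type on 5 of 6 probe sets, all but 266081_at, by 0.47 to 0.90 (limma adjusted p at most 0.00956). In that comparison 17.5% of all probe sets tested were higher and 34.5% passed in either direction.

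Of the AT2G37840 probe sets, 266080_at passed in 2 of the 6 comparisons and 266081_at in 0 (smallest unadjusted limma p 0.115). The gene table lists a second locus name, AT2G37850, as a synonym of AT2G37840, and which stretch of the locus each probe set reads is not given in the sources used here. Probe set 266081_at was dim, at percentiles 27.8 to 32.7 of the arrays in its group means, against 60.7 to 68.2 for 266080_at, and it was the only probe set of the 6 below the 40th percentile of mean level. It had 3.80, 4.59 and 4.01 in treated des1 and 4.1, 4.22 and 4.15 in untreated des1. In wild type it had 4.71, 4.03 and 3.99 with Na2S, against 4.13, 3.92 and 3.73 with water. Treated groups were spread widely on it (SD 0.41 and 0.40), untreated groups less (SD 0.06 and 0.20), and all groups overlapped.

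The log2 difference between the probe sets within an array was 0.63 smaller with Na2S in des1 and 0.65 smaller with Na2S in wild type. The exact permutation test, two-sided, gave p = 0.1 for each, the smallest value that 3 arrays against 3 allow (adjusted p = 0.167 over 5 comparisons), so it could not pass. The loss of 1 array, des1 Na2S replicate 2, took the change in des1 to -0.26. The fall of AT2G37840 in treated des1 was called on 266080_at, and 266081_at differed by -0.02 ± 0.19 (95% interval -0.43 to 0.38).

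Other autophagy genes came from a list of 43 further loci, of which 16 had a probe set, 17 probe sets in all, and 27 were not used. In untreated des1 against untreated wild type 8 of the 17 rose, 1 fell and 8 did not pass, with a median difference of 0.26, where 22.0% of all probe sets rose and 22.6% fell. In des1 given Na2S against des1 given water 13 fell, 0 rose and 4 did not pass (median -0.51), where 19.6% of all probe sets fell. Between treated genotypes 0 of 17 passed limma, where 1.40% of all probe sets passed. An unadjusted limma p under 0.05 was reached by 2 of the 17, and by 2586 of the 22746 tested. In wild type given Na2S against water 5 fell, 0 rose and 12 did not pass (median -0.21), where 15.4% of all probe sets fell, and all 5 were ATG8 genes. The list holds the ATG8 family, so its members are not all enzymes.

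Among the listed partners of the ATG1 kinases, ATG101 (AT5G66930), a subunit of the initiating complex, rose in untreated des1 (0.42 ± 0.14, limma adjusted p = 0.0207). It fell in treated against untreated des1 (-0.70 ± 0.14, adjusted p = 0.000592). Its profile lay near that of ATG3. AT3G18770, listed in the same complex, differed by 0.15 ± 0.15 between the untreated genotypes and fell with Na2S in des1 (-0.42 ± 0.15, adjusted p = 0.0341). AT1G49180, also listed there, is not a partner but a further ATG1 gene, named ATG1T in the list. It passed in none of the 6 comparisons, with differences between 0.01 and 0.17.

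Among the genes listed for conjugation, which need not all be enzymes, the only further one measured was AT5G50230, named ATG16 in the list. It rose in untreated des1 (0.69 ± 0.11, limma adjusted p = 2.93e-05), fell with Na2S in des1 (-0.43 ± 0.11, adjusted p = 0.00342) and had an interaction of -0.69 ± 0.15 (adjusted p = 0.0012). In wild type it differed by 0.26 ± 0.11 with Na2S (adjusted p = 0.0762). The genes of the E1-type enzyme and of most other conjugation steps were not used here.

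The substrates of ATG3 and ATG4, the ATG8 genes, were measured by 9 probe sets. Of these 4 rose and 1 fell in untreated des1 against untreated wild type, 8 fell with Na2S in des1 and 5 fell with Na2S in wild type, to be read against the same shares of all probe sets (22.0% and 22.6%, 19.6% and 15.4%). The largest differences were those of ATG8B (1.24 ± 0.14) and APG8A (0.98 ± 0.12) in untreated des1 against untreated wild type, and of ATG8G (-1.33 ± 0.13) and ATG8B (-1.27 ± 0.14) in des1 given Na2S against water. In wild type given Na2S against water they were those of ATG8E (-1.16 ± 0.17) and ATG8D (-1.03 ± 0.15), beside -0.32 ± 0.14 for ATG3 and -0.20 ± 0.12 for AT3G59950, which did not pass. Whether the enzymes and their substrates differ in response was not tested.

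**Figure D3:**
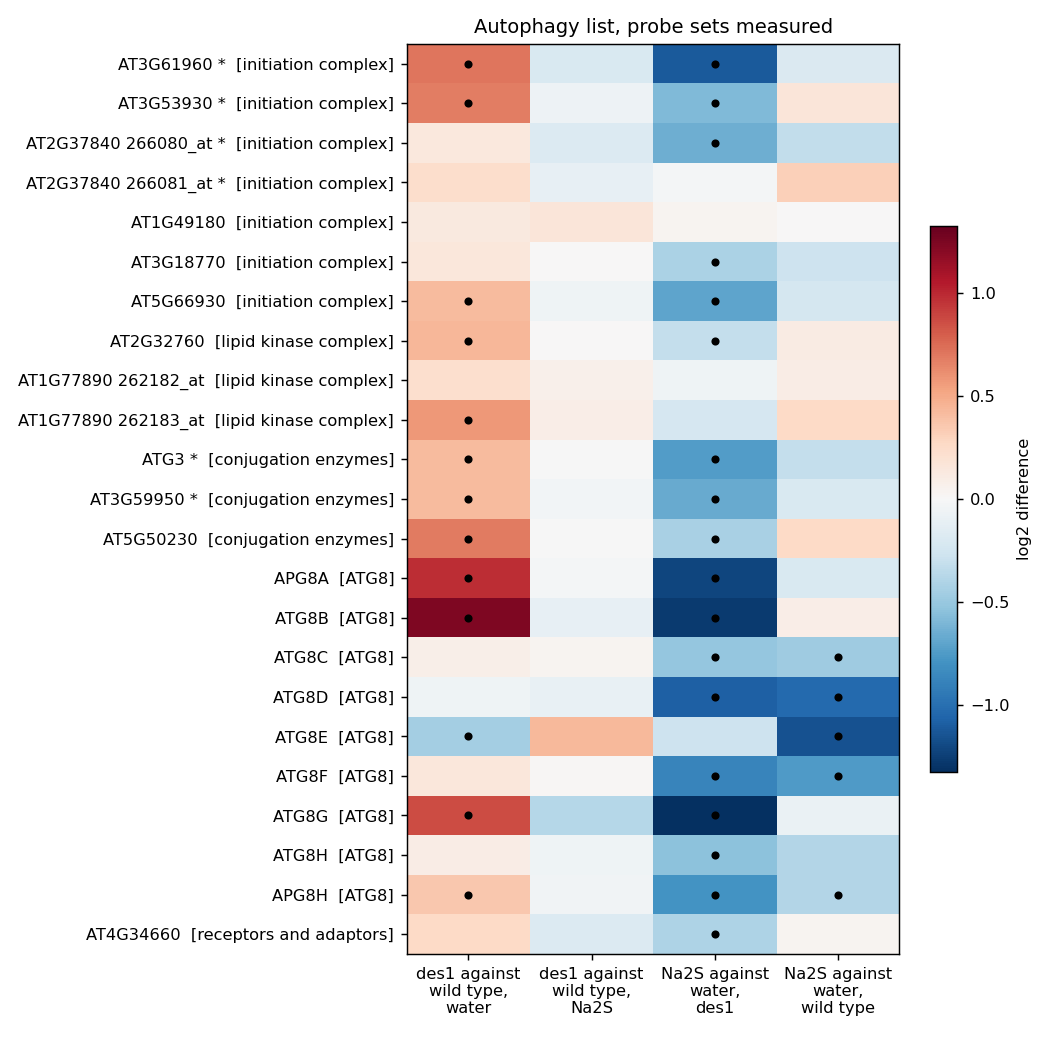
Log2 differences (colour scale) of the 23 measured probe sets of the autophagy list in 4 comparisons: the genotypes under water, the genotypes under Na2S, Na2S against water in des1, and Na2S against water in wild type. Rows are genes with their place in the pathway, asterisks mark the ATG1, ATG3 and ATG4B probe sets, and black dots mark an adjusted p under 0.05. The second column holds 0 dots, and the third holds 18, all on the negative side.

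Upstream of ATG1, plant cells control autophagy through the TOR kinase, which holds it back, and the SnRK1 kinase, which promotes it. Of 9 listed subunits 4 were measured. RAPTOR1 and RAPTOR2, partner proteins of TOR, rose in untreated des1 by 0.55 ± 0.13 and 0.47 ± 0.10 (limma adjusted p = 0.00145 and 0.00104). AT4G16360 (KINbeta2), a SnRK1 subunit, rose by 0.31 ± 0.12 (adjusted p = 0.0363), and the SnRK1 subunit AKINBETA1 differed by -0.22 ± 0.12 without passing. Under Na2S 0 of the 4 passed between the genotypes, with 0 at an unadjusted p under 0.05. In that comparison 1.40% of all probe sets passed limma, and 2586 had an unadjusted p under 0.05.

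These subunits did not follow 1 pattern with Na2S. AKINBETA1 fell in both genotypes, with differences of -0.58 ± 0.12 in des1 (limma adjusted p = 0.00054) and of -0.82 ± 0.12 in wild type (adjusted p = 1.99e-05). RAPTOR1 fell in des1 (-0.34 ± 0.13, adjusted p = 0.0462) and differed by 0.24 ± 0.13 in wild type. RAPTOR2 rose in wild type (0.43 ± 0.10, adjusted p = 0.00378) and differed by 0.09 ± 0.10 in des1, and AT4G16360 rose in wild type (0.51 ± 0.12, adjusted p = 0.00242) and differed by -0.03 ± 0.12 in des1.

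Likeness of profiles was measured as the root mean square difference, over the 12 arrays, between log2 values centred on their own means, among 13435 other probe sets of 1 gene. It describes the shape and the size of the changes only, since the centred values were not scaled. Closest to AT3G61960 were AT1G10140 (0.06), AT4G16330 (0.09) and AT5G53420 (0.11), whose group means likewise were highest in untreated des1 and lowest in treated des1. Closest to AT3G59950 were HAT2, a homeodomain transcription factor gene, (0.09), AT1G28260 (0.10) and AT1G55590 (0.11). Closest to ATG3 were AT2G19130 (0.15), ATG101 (0.15) and THIC, an enzyme of thiamine synthesis (0.15).

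Closest to AT3G53930 were AT4G23885 (0.11), AT5G44000 (0.13) and AT1G71970 (0.13), and closest to probe set 266080_at of AT2G37840 were AT1G23710 (0.11), AT1G04780 (0.11) and AT4G12230 (0.12). For 266081_at they were AT1G66810, AT1G72125 and AT1G62410, at 0.14 to 0.15 on a profile whose group means span only 0.32. The ATG genes of this set were not each other's nearest profiles. The closest pair was ATG3 and AT2G37840 on 266080_at, at 0.21, and 390 other probe sets lay closer to 266080_at than ATG3 did. AT3G61960 and AT3G59950 followed at 0.22, with 224 probe sets closer to AT3G61960.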

How the data were processed

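Leaf RNA of 12 samples was labelled with biotin and hybridised to Affymetrix ATH1 arrays, per the labels' protocols. The deposited table holds log2 values made by the authors with RMA in the affy package, per the submitters' processing notes, versions and joint processing of all arrays not stated. RMA corrects background, equalises array distributions and summarises the probes of each set, so a shift shared by most transcripts is removed and changes of dim transcripts are compressed. Values were used as deposited, without 64 control probe sets. The platform annotation gave a single gene for 13513 of the 22746 tested, and 13436 of these matched 1 locus in a TAIR10.1 gene table, used for names only. Other probe sets of these genes may exist among the unnamed.

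Group means of the 4 groups were estimated in 1 linear model over the 12 arrays, using limma 3.58.1 (lmFit and eBayes at default settings) in R 4.3.3, with Benjamini-Hochberg adjustment over all probe sets of a comparison. The fit was tested on simulated data. The design text calls the replicates biological. The genes and lists were chosen with earlier results of these data known. Named were all 6 probe sets, the measured initiation, conjugation and upstream genes, the 2 largest passing differences of other autophagy lists and the 3 closest profiles. Same-numbered replicates did not pair: their deviations correlated at -0.215 to 0.162. Alternatives were repeated quantile normalization, median centring, a filter at the 40th percentile of mean level, a robust variance trend, array weights, compared arrays alone, a replicate block, a 1.5-fold minimum and each array left out. The number of arrays limits the precision.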

Additional observations from a re-analysis of the deposited data

Results flagged for a closer look

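For 3 of the 6 probe sets the genotype difference itself differed between the waterings. The genotype difference under Na2S minus that under water was -0.92 for AT3G61960, -0.75 for AT3G53930 and -0.46 for AT3G59950, the last with a call that 8 single arrays and renewed quantile normalization each removed. In these, des1 was above wild type under water, by 0.71, 0.68 and 0.42, while under Na2S it differed by -0.21, -0.07 and -0.04. Of all probe sets tested 37.7% passed the same test, in either direction.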

How the results depend on the processing

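Of 36 pairs of a probe set and a comparison 14 were called, and under the alternatives these gave 197 values, of which 185 kept the call, 12 lost it and 0 changed sign. The 12 are the ATG3 rise under water and the AT3G59950 interaction, as given with the results. Of 295 values that were not called, 9 passed under an alternative and 18 changed sign. With the replicate number as a replicate block 0 of these calls changed, and the probe sets called in all were 10025 under water and 274 under Na2S between the genotypes, against 10166 and 318 without it. With array weights 838 were called between the genotypes under Na2S, and 186 to 273 without single arrays. A minimum of 1.5-fold left 2 of the 4 rises under water and 0 of the 2 calls of treated des1 against untreated wild type. For Na2S in wild type 1 of the 6 probe sets passed without dim probe sets, 3 with array weights and 0 to 1 without single arrays. The weighted fit called 9538 of all probe sets in that comparison, against 6919 without weights.

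Signs turned for uncalled differences near 0. For ATG3 between the genotypes under Na2S they were 0.0208 after quantile normalization, 0.00667 after median centring and 0.11 with array weights, and -0.0917 to 0.0583 without single arrays. In that comparison the ranges without single arrays were -0.34 to 0.12 for 266081_at, -0.17 to 0.055 for AT3G53930 and -0.13 to 0.0217 for AT3G59950. The Na2S difference of 266081_at in des1 was 0.0133 after median centring and -0.25 to 0.14 without single arrays. For treated des1 against untreated wild type the ranges were -0.01 to 0.22 for AT3G53930 and -0.0217 to 0.37 for 266081_at. The gap between the AT2G37840 probe sets changed by -0.29 to 0.30 between the treated genotypes.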
